A study of Mus musculus with 8 samples.

Results

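The 77 genes named Mrps or Mrpl with a number carry the names of proteins of the mitochondrial ribosome, and they were read in quadriceps femoris muscle of mice that lack Grpel1 in skeletal muscle. Mrps36, whose product is now placed in another complex, is kept in all counts by its name. They were found by their symbols in the deposited table of 14012 genes, where 29 carry the small-subunit name (Mrps), 48 carry the large-subunit name (Mrpl) and none is marked as a pseudogene. They were picked by symbol, and the rule used no measured value. Each of the 77 genes had counts in all 8 libraries, the lowest being 130, and none was removed by a filter on low values.

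The mitochondrial ribosome sits in the matrix at the inner membrane and translates the few mRNAs of the mitochondrial genome, all of which code for subunits of the respiratory chain and the ATP synthase. Its rRNAs are made inside the organelle, whereas all of its proteins are coded in the nucleus, translated in the cytosol and imported into the matrix before assembly. Some of these proteins descend from the bacterial ribosome and others are found in mitochondria only. Skeletal muscle depends heavily on this supply of respiratory chain subunits, and GRPEL1 is a co-chaperone of the mitochondrial HSP70 that drives import into the matrix.

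The knockout group was 4 Grpel1 skm-/- mice, in which a tamoxifen-inducible Cre under the human skeletal actin promoter (HSA-Cre-ERT2) deletes the floxed gene after 5 daily doses of tamoxifen begun at 5 weeks of age. The control group was 4 Grpel1 flox/flox mice, and whether they received tamoxifen is not stated for these libraries. Elsewhere, for body weight, the study's text describes floxed littermates as untreated. Its weighed groups also held floxed mice without Cre given tamoxifen and floxed Cre mice without tamoxifen. Whether the sequenced controls carried Cre is not stated either. Any effects of the drug, of Cre and of the deletion therefore cannot be told apart. Both groups carry the floxed allele, the Cre acts in muscle fibres and not in the other cells of the tissue, and the age at which muscle was taken for sequencing is not given per library. One polyA RNA library was made per mouse, and p-values measure the spread between these mice.

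Total counts ran from 16017565 to 20361144 per library, which makes 3 counts, the limit that a count of 0 allows, worth 0.119 to 0.242 CPM. CPM is the usual unit of counts per library size, here with edgeR's TMM correction for composition, and the TMM factors were 0.75 to 0.84 in the control and 1.19 to 1.33 in the knockout libraries without overlap. Counts over the whole of Grpel1 did not check the labels, with 68.4 ± 3.04 CPM in the control and 65.3 ± 6.11 CPM in the knockout libraries (SD, n = 4 each, log2 fold change -0.066), so each direction below rests on the labels. All 12 muscle markers were present, and their summed level was 225318 to 287974 CPM in the control and 79204 to 110709 CPM in the knockout libraries, with 9 lower and 2 higher by edgeR. Of the other cells, summed fibroblast markers (4 of 7 lower) were at 1697 to 2569 against 683 to 1059 CPM, endothelial markers (6 of 7 lower) at 294 to 438 against 213 to 242 CPM and macrophage markers (1 of 8 higher) at 76.0 to 202 against 171 to 321 CPM. Adipocyte markers were at 254 to 1786 against 779 to 2952 CPM, and the 3 of 6 neutrophil and lymphocyte markers in the table (1 lower, 1 higher) at 0.441 to 3.64 against 15.5 to 36.9 CPM. With the adipocyte markers as a covariate 18 members were lower and 9 higher, beside 21 and 11 without it. Of all 14012 genes, 2647 were lower and 2869 higher with it, and 2962 and 3303 without it. The part of the other cells in the results below was not tested. As a limit of all values, in bulk tissue fewer cells of a type and less RNA per cell cannot be told apart.

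Promoters are shown first for the members at both ends of the range of change, Mrps36 and Mrpl42, whose counts were lowest in the knockout relative to the control, and Mrpl24 and Mrps18b, whose counts were highest. Each is the RefSeq sequence of GRCm38.p6 from 250 bases before to 50 bases after the annotated start, written 5′ to 3′ on the strand of the gene. Capitals mark a match to one of 5 motifs searched on both strands, namely GCGCA and GCGC with 1 base of any kind between them for NRF1, CCGGAAG for ETS factors, ATGGCGGC for YY1, TGACGTCA for the cAMP response element and TGATGNAA for the element bound by ATF4 with a partner. NRF1 and the ETS factor GABP are textbook regulators of nuclear genes for mitochondrial proteins, and ATF4 is the effector of the integrated stress response.
Mrps36 (chr13:100744610-100744909, minus strand): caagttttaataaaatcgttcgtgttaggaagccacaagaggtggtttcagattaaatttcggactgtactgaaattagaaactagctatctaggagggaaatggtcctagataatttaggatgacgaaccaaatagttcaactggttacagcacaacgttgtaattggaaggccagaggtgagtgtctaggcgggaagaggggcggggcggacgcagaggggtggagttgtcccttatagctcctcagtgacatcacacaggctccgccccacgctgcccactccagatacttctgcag
Mrpl42 (chr10:95501900-95502199, minus strand): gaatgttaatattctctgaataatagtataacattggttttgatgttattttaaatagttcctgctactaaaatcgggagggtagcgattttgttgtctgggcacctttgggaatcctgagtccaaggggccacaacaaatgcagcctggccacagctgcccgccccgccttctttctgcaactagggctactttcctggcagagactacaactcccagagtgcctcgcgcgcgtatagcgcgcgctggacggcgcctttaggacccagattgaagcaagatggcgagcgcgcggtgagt
Mrpl24 (chr3:87919294-87919593, plus strand): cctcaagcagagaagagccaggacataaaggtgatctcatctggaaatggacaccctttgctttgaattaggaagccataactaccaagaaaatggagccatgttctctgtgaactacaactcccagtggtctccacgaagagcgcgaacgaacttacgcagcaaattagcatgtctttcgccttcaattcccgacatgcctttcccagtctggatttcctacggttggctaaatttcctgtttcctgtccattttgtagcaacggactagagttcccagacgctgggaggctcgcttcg
Mrps18b (chr17:35916391-35916690, minus strand): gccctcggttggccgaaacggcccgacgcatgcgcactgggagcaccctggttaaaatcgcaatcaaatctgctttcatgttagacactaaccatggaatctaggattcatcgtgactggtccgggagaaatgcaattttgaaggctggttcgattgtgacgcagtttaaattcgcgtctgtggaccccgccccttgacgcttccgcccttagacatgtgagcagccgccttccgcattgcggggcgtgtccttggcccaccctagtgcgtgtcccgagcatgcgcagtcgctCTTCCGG

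Mrps36, Mrpl42 and Mrpl24 held none of these letters, and Mrps18b held the ETS motif on the reverse strand from base 44 after the start. Mrpl17 and Mrps21 are added, chosen after their values were seen, because they were the 2 genes that passed the test and held both the NRF1 and the ETS motif. Mrpl17 was higher and Mrps21 lower in the knockout libraries with TMM scaling, and no match overlapped another in either promoter. The RefSeq starts of Mrps21, Mrps18b and Mrpl42 lie outside the spans that the deposited table gives for these genes.
Mrpl17 (chr7:105811038-105811337, minus strand): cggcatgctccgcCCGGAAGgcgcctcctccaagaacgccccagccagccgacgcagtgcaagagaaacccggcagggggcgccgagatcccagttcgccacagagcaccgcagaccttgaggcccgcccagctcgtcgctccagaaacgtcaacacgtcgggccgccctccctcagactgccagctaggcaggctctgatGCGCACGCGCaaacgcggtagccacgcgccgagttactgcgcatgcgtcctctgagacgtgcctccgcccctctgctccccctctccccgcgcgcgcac
Mrps21 (chr3:95871465-95871764, minus strand): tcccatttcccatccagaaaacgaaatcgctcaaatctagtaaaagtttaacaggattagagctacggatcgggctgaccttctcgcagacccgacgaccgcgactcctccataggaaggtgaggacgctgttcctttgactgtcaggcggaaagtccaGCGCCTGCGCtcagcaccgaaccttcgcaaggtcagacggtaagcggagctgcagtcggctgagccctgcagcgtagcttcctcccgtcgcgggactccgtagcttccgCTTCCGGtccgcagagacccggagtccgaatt

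Of the 77 genes, 68 had a promoter in the RefSeq table, and 42 of these held at least 1 of the 5 motifs. The ETS letters stood in 25 promoters (36.8%, against 9.93% of the promoters of all 27025 genes and 18.6% of those of the 10673 tested genes with one). The NRF1 letters stood in 13 (19.1%, against 5.19% and 10.8%), and the YY1 letters in 12 (17.6%, against 2.61% and 5.31%). The cAMP response element was in 2 (2.94%, against 2.03% and 3.47%), and the ATF4 element in 0 of the 68 (against 4.51% and 2.75%), which says only that these letters are not in these windows. By direction of change, the ETS letters were in 5 of 20 promoters of lower genes, 4 of 11 of higher genes and 16 of 37 of genes that did not pass. The NRF1 letters were in 3 of 20, 2 of 11 and 8 of 37, and the YY1 letters in 3 of 20, 1 of 11 and 8 of 37. A match is a description of the sequence and not a site of binding. Mrpl4, Mrpl13, Mrpl15, Mrpl19, Mrpl38, Mrpl54, Mrps28, Mrps34 and Mrps35 had no entry.

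The comparison of knockout with control asks how the transcripts of the mitochondrial translation machinery differ in muscle of the Grpel1 knockout. Import into the matrix was not measured in these libraries. The mitochondrial ribosomal protein genes moved in both directions: 21 were lower and 11 higher in the knockout libraries, and 45 did not pass (edgeR's quasi-likelihood test, Benjamini-Hochberg adjusted p under 0.01 over all 14012 genes). Under the library totals alone, with no factor for composition, 2 were lower and 64 higher, beside 873 and 8498 of all 14012 genes. With RLE factors 25 were lower and 8 higher, beside 3213 and 3005 of all genes. With TMM scaling 27.3% of the members were lower, against 21.1% of all genes, and 14.3% were higher, against 23.6% of all genes, so that 41.6% passed in either direction against 44.7% of all genes. The share of members called was thus near that of the table as a whole. Genes of the table are wider than the members in the median, as given below with the levels. Its shares and median are therefore not those of genes of like width. Mrps36 and Mrpl42 (2.597% of the members, against 7.69% of all genes) were lower by at least 2-fold, and 0 members were higher by as much, against 9.83% of all genes. An unadjusted p under 0.05 was found for 48 of the 77 (62.3%, against 63.6% of all genes).

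The median log2 fold change was -0.12 over the 77 genes and 0.065 over all genes, and 49 of the 77 values were negative. Library totals alone moved the median of all genes to 0.73 and that of the 77 genes to 0.56, so the sign of the typical member turned with the scaling. Relative to the median of all genes the members stood at -0.18 with TMM and at -0.18 with library totals. A change of scaling moves all genes by nearly the same amount, so this value could hardly differ. The members' share of all raw counts was 0.242% to 0.259% in the control and 0.332% to 0.363% in the knockout libraries without overlap. Such a share is scaling by library totals and holds no correction for composition, and the muscle markers named above took less of the knockout libraries. With TMM the members' summed CPM was 2870 to 3309 in the control and 2707 to 2937 in the knockout libraries, with overlap.

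**Figure D1:**
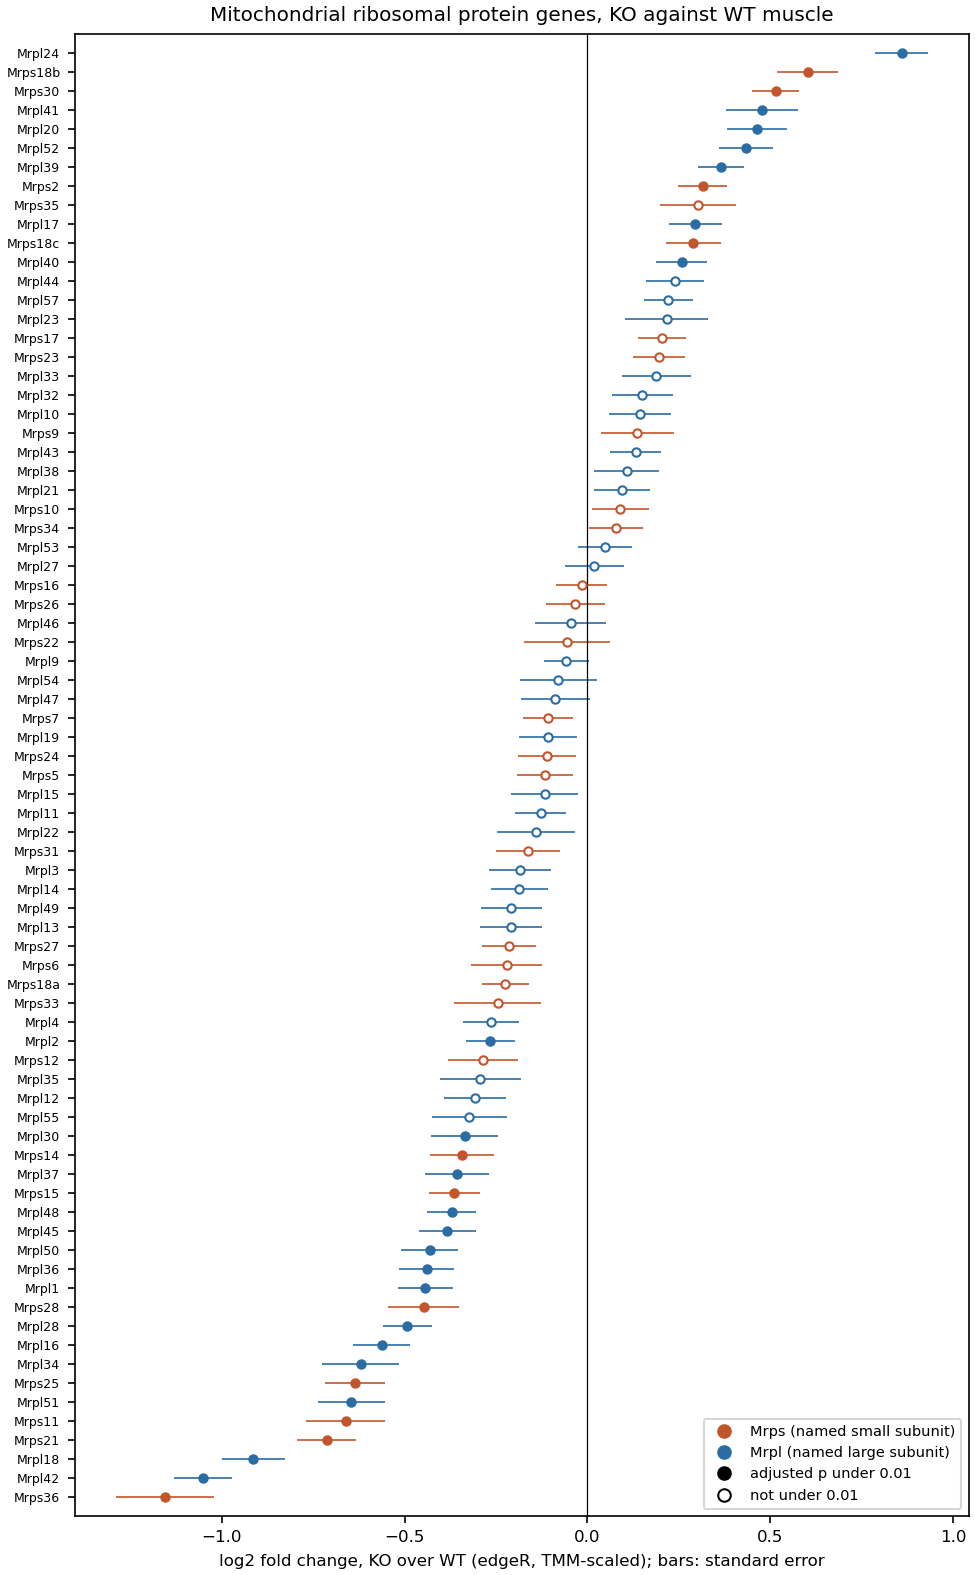
Log2 fold change of knockout (KO) over control (WT) for each of the 77 genes on the horizontal axis, ordered by value, with bars for the standard error, orange for Mrps and blue for Mrpl, and filled points for an adjusted p under 0.01. The values run from -1.16 for Mrps36 to 0.86 for Mrpl24 with TMM scaling, and both subunits appear at both ends; with library totals alone most of the negative values turn positive.

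Groups that do not overlap were counted as well. In 24 genes every knockout library lay below every control library and in 14 every one lay above, together 49.4% of the members, against 24.4% and 29% of all genes and 53.4% for both directions. Control replicate 4 bore on this count, since without it 38 members lay wholly below, a count that was not made for all genes. Mrpl30, which codes for the homologue of bacterial L30, was the only gene that passed the test with overlapping libraries. The other way round, Mrpl12, Mrps12, Mrpl4 and Mrps18a were lower and Mrps23, Mrps17 and Mrpl57 higher without overlap but did not pass. The threshold fell between Mrpl30 (adjusted p = 0.0099) and Mrpl12 (adjusted p = 0.011).

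Both subunit names held genes of both directions. Of the 29 Mrps genes 7 were lower and 4 higher, with a median log2 fold change of -0.11, and of the 48 Mrpl genes 14 were lower and 7 higher, with a median of -0.12. Under library totals alone both medians turned positive, to 0.56 and 0.55. The mean log2 CPM of the Mrps genes was 4.96 ± 0.091 in the control and 4.85 ± 0.047 in the knockout libraries, and that of the Mrpl genes was 5.26 ± 0.089 and 5.15 ± 0.051 (SD, n = 4 each). In both cases the groups overlapped, because control replicate 4 lay among the knockout libraries, and without it the difference was -0.16 for Mrps and -0.15 for Mrpl. Within a library, where scaling cancels, Mrps minus Mrpl was -0.29 ± 0.026 in the control and -0.30 ± 0.011 in the knockout libraries, again with overlap.

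**Figure D2:**
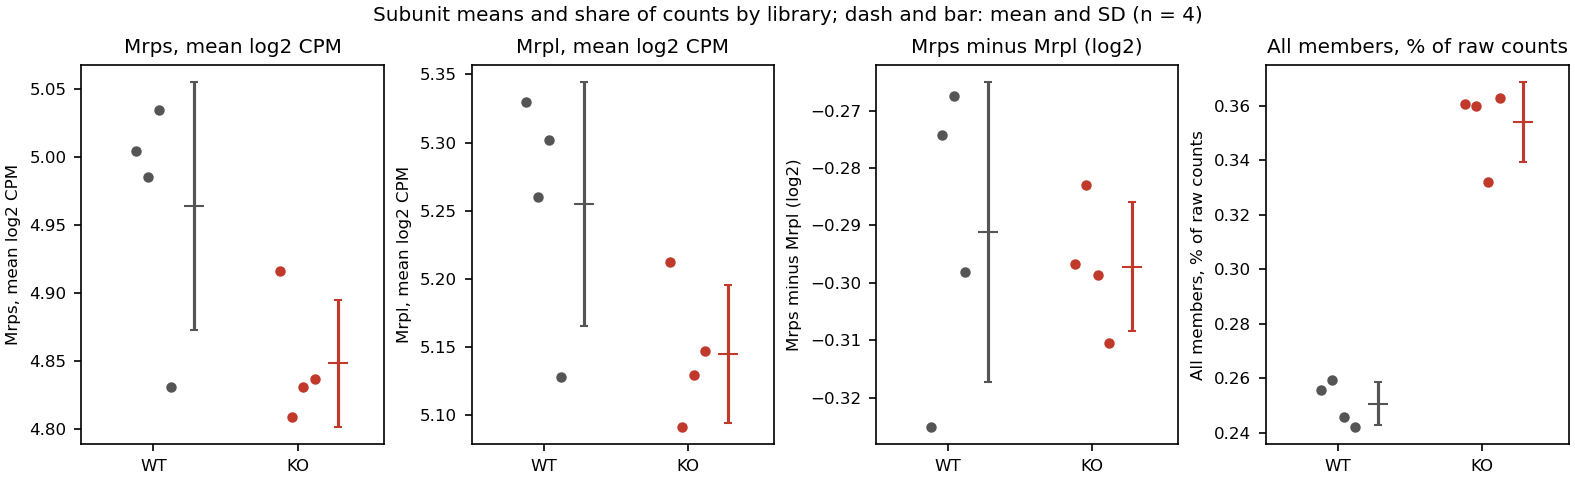
Mean log2 CPM of the Mrps and of the Mrpl genes, their difference within a library, and the share of raw counts of all 77 genes in percent, with 1 point per library for the 4 control (WT) and 4 knockout (KO) mice and a dash and bar for the mean and SD. The first 3 panels overlap between the groups, and the axes do not start at 0. The share of raw counts, which is not corrected for composition, is 0.242% to 0.259% in WT and 0.332% to 0.363% in KO.

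By descent, the 48 proteins with a bacterial homologue held 13 lower and 6 higher genes and a median log2 fold change of -0.13. The 28 proteins found in mitochondria only held 7 lower and 5 higher genes and a median of -0.039. Mrps36, in neither class, is counted apart. Subunits here go by the gene's name, although the proteins of Mrps30 and Mrps18a lie in the large subunit of mammals. Among the 18 mitochondria-specific Mrpl genes 6 were lower and 4 higher, and among the 10 mitochondria-specific Mrps genes 1 was lower (Mrps25) and 1 higher (Mrps30). These counts were not compared by a test, and under library totals alone the signs turn as for the whole family.

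The gene with the lowest ratio was Mrps36 (Entrez Gene 66128, chromosome 13 from 100735940 to 100744659 of GRCm38). Its product was first assigned to the small subunit and is now known as a subunit of the 2-oxoglutarate dehydrogenase complex of the citric acid cycle. Control libraries had 33.0, 31.7, 34.8 and 23.9 CPM and knockout libraries 15.5, 15.3, 12.1 and 12.4 CPM. The means were 30.9 ± 4.78 and 13.8 ± 1.84 CPM (SD, n = 4 each), and the log2 fold change was -1.16 (SE 0.13, adjusted p = 4.82e-05). Control replicate 4 was the lowest control and still stood above every knockout library. Mrpl42 (Entrez Gene 67270, chromosome 10 from 95480806 to 95501927), a mitochondria-specific protein of the large subunit, had 201.6, 189.6, 203.6 and 169.1 CPM in the control and 96.3, 85.4, 95.2 and 91.7 CPM in the knockout libraries. The log2 fold change was -1.05 (SE 0.079, adjusted p = 2.87e-06), and the lowest control had well above the highest knockout value. Both genes also passed as lower under library totals alone, with log2 fold changes of -0.48 and -0.38.

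Mrpl18 (Entrez Gene 67681, chromosome 17 from 12911355 to 12916091), the homologue of the bacterial protein that binds the 5S rRNA, had 79.1, 83.2, 81.4 and 76.6 CPM in the control and 46.7, 45.8, 36.3 and 41.2 CPM in the knockout libraries. It fell by 0.91 on the log2 scale (SE 0.086, adjusted p = 1.20e-05), with the controls close together and all above the knockouts. Mrps21 (Entrez Gene 66292, chromosome 3 from 95862652 to 95870619), a small bacterial-type protein of the small subunit, had 70.9, 66.7, 66.7 and 56.5 CPM in the control and 40.7, 37.0, 41.0 and 40.3 CPM in the knockout libraries. Its log2 fold change was -0.71 (SE 0.080, adjusted p = 3.80e-05) and the groups were apart. With library totals alone neither passed, at -0.24 for Mrpl18 and -0.043 for Mrps21.

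Mrps11 (Entrez Gene 67994, chromosome 7 from 78783131 to 78792988), a protein of the platform of the small subunit, had 20.04, 20.2, 17.96 and 15.3 CPM in the control and 11.5, 12.6, 10.48 and 11.9 CPM in the knockout libraries. The log2 fold change was -0.66 (SE 0.11, adjusted p = 4.92e-04), without overlap. Mrpl51 (Entrez Gene 66493, chromosome 6 from 125192200 to 125194392), a mitochondria-specific protein of the large subunit, had 138.5, 123.1, 119.2 and 103.2 CPM in the control and 82.4, 75.3, 72.4 and 79.0 CPM in the knockout libraries. Its log2 fold change was -0.65 (SE 0.092, adjusted p = 1.86e-04), and again control replicate 4 was the lowest control and above all knockouts. Under library totals alone the log2 fold changes of these 2 genes were 0.013 and 0.027, so their direction depends on the correction for composition.

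The other 15 lower genes had log2 fold changes from -0.64 to -0.27. With the Mrps name these were Mrps25 (-0.64), Mrps28 (-0.45), Mrps15 (-0.36) and Mrps14 (-0.34). In the large subunit, those with bacterial homologues were Mrpl34 (-0.62), Mrpl16 (-0.56), Mrpl28 (-0.49), Mrpl1 (-0.44), Mrpl36 (-0.44), Mrpl30 (-0.34) and Mrpl2 (-0.27). Mrpl2 is a core protein of the peptidyl transferase region and Mrpl1 belongs to the stalk beside the tRNA exit site. The mitochondria-specific ones were Mrpl50 (-0.43), Mrpl45 (-0.38), Mrpl48 (-0.37) and Mrpl37 (-0.36). Under library totals alone all 15 had positive values, from 0.033 for Mrps25 to 0.40 for Mrpl2.

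**Figure D3:**
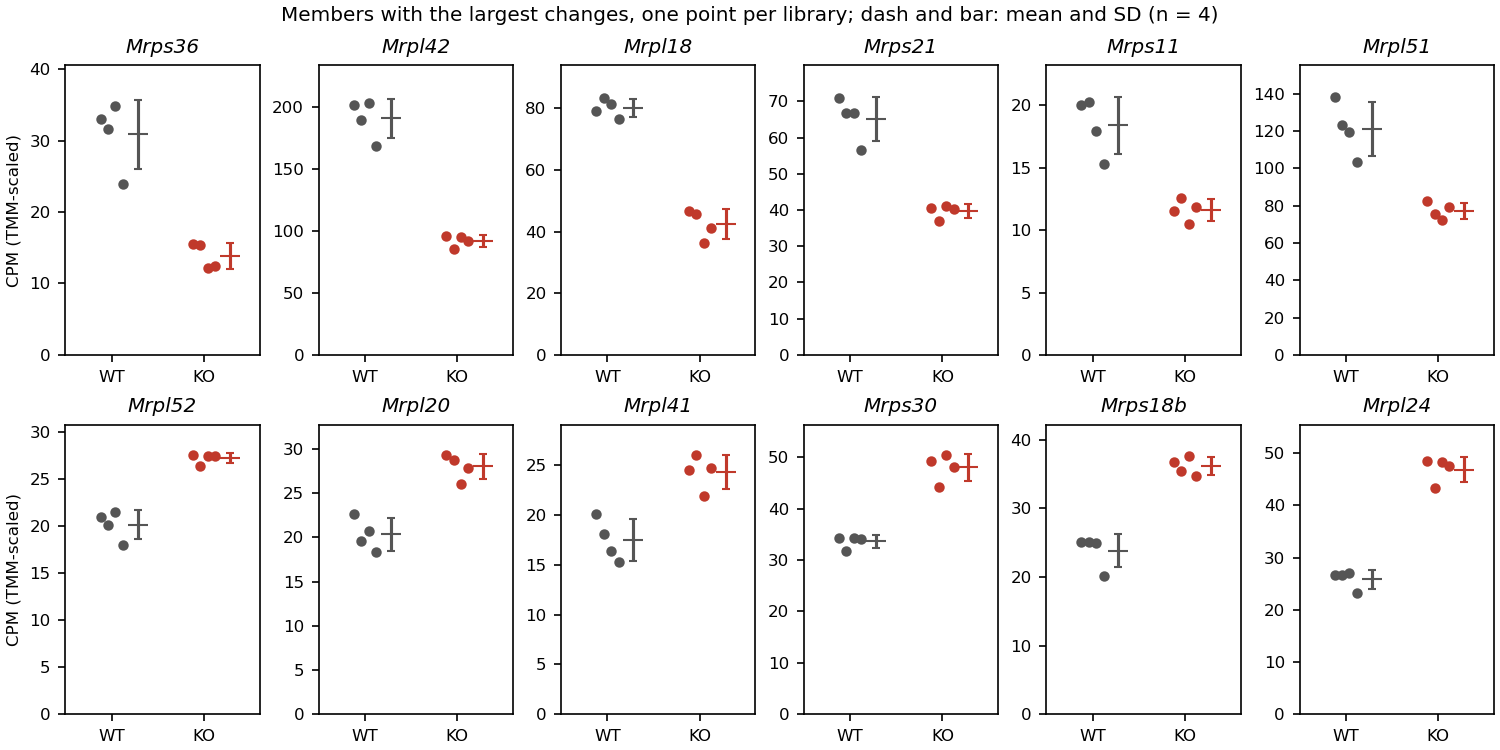
TMM-scaled CPM of the 6 genes with the lowest and the 6 with the highest log2 fold change among those that passed, with 1 point per library for the control (WT) and knockout (KO) mice, a dash and bar for the mean and SD, and axes from 0. In each panel the groups do not overlap, as with Mrps36 at 23.9 to 34.8 in WT and 12.1 to 15.5 in KO, or Mrpl24 at 23.2 to 26.98 and 43.3 to 48.4; under library totals alone only Mrps36, Mrpl42, Mrpl18 and Mrps21 of the upper row have a negative value.

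The gene with the highest ratio was Mrpl24 (Entrez Gene 67707, chromosome 3 from 87919544 to 87923433), whose bacterial homologue starts the assembly of the large subunit and lies at the mouth of the exit tunnel. Control libraries had 26.6, 26.6, 26.98 and 23.2 CPM and knockout libraries 48.4, 43.3, 48.3 and 47.5 CPM. The means were 25.8 ± 1.77 and 46.9 ± 2.43 CPM (SD, n = 4 each), and the log2 fold change was 0.86 (SE 0.072, adjusted p = 5.83e-06). The span of Mrpl24 overlaps that of Rrnad1 on the opposite strand, and 38.2% of its exon bases in the GENCODE annotation are shared with another gene. Rrnad1 itself had 9.60 CPM in the control and 11.0 CPM in the knockout libraries (log2 fold change 0.20, adjusted p = 0.11), and whether the authors' counting used the strand is not stated.

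Mrps18b (Entrez Gene 66973, chromosome 17 from 35910385 to 35916369) had 25.1, 25.1, 24.9 and 20.2 CPM in the control and 36.8, 35.5, 37.7 and 34.7 CPM in the knockout libraries. The log2 fold change was 0.60 (SE 0.083, adjusted p = 1.55e-04), with all knockouts above all controls, and 59.1% of its exon bases are shared with an antisense transcript, Gm16279. Mrps30 (Entrez Gene 59054, chromosome 13 from 118380110 to 118387252), named for the small subunit but located in the large subunit in structures of the mammalian mitochondrial ribosome, had 34.3, 31.8, 34.3 and 34.2 CPM in the control and 49.4, 44.3, 50.4 and 48.2 CPM in the knockout libraries. Its log2 fold change was 0.52 (SE 0.064, adjusted p = 8.06e-05), without overlap. An antisense transcript shares 18.1% of its exon bases.

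Mrpl41 (Entrez Gene 107733, chromosome 2 from 24972470 to 24975098), a mitochondria-specific protein of the large subunit, had 20.1, 18.1, 16.4 and 15.3 CPM in the control and 24.5, 26.1, 21.9 and 24.7 CPM in the knockout libraries, a log2 fold change of 0.48 (SE 0.099, adjusted p = 0.0022). Dph7, whose span overlaps it on the opposite strand, rose as well (0.60, adjusted p = 0.0016). In the GENCODE annotation Mrpl41 has 776 exon bases, of which 0% are shared with another gene. Its deposited exon width is 2423 bases, so part of the counted exon was not checked for shared bases. Mrpl20 (Entrez Gene 66448, chromosome 4 from 155803618 to 155808829), an early assembly protein in bacteria, had 22.7, 19.6, 20.7 and 18.4 CPM in the control and 29.4, 28.8, 26.1 and 27.9 CPM in the knockout libraries, a log2 fold change of 0.46 (SE 0.082, adjusted p = 7.76e-04). Mrpl52 (Entrez Gene 68836, chromosome 14 from 54426909 to 54429750), a mitochondria-specific protein of the large subunit, had 20.9, 20.2, 21.5 and 18.02 CPM in the control and 27.5, 26.4, 27.5 and 27.5 CPM in the knockout libraries, a log2 fold change of 0.43 (SE 0.073, adjusted p = 6.00e-04). None of the 3 genes had overlapping groups.

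The other 5 higher genes were Mrpl39 (0.37), Mrps2 (0.32), Mrpl17 (0.30), Mrps18c (0.29) and Mrpl40 (0.26). Mrpl39 and Mrpl40 code for mitochondria-specific proteins, and Mrps2 and Mrpl17 for proteins with bacterial homologues. Under library totals alone Mrpl24 was at 1.53, Mrps18b at 1.27 and Mrps30 at 1.18. That setting shifts all genes upward by nearly the same amount, so the higher genes had to keep their direction. The 45 genes that did not pass had log2 fold changes between -0.32 (Mrpl55) and 0.30 (Mrps35), and 28 of the 77 values in all were positive.

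Leaving out 1 library at a time, 25 of the 32 genes that passed did so in all 8 fits, 17 lower and 8 higher. The other 7 lay near the threshold and kept their sign. Mrpl40 was lost without any 1 of the 8 libraries (adjusted p = 0.011 to 0.040), and Mrps18c without any 1 except knockout replicate 2 (0.015 to 0.045). Mrpl30 was lost without WT1, WT2, WT3, KO2, KO3 or KO4 (0.013 to 0.028), where WT1 to WT4 and KO1 to KO4 stand for the control and knockout replicates. Mrpl2 was lost without WT1, WT2, WT3, WT4 or KO4 (0.011 to 0.017), and Mrpl37 without WT1, WT2, WT3, KO2 or KO4 (0.012 to 0.017). Mrps14 was lost without WT1, WT2, WT3 or KO4 (0.011 to 0.021), and Mrpl17 without WT2, KO1, KO2 or KO4 (0.011 to 0.017).

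Other settings ended some calls too. With a trend of the fold change on exon width over all genes taken out, Mrps18c was at 0.094 (adjusted p = 0.29), Mrpl40 at 0.13 (adjusted p = 0.10) and Mrpl52 at 0.23 (adjusted p = 0.012). With this trend and the replicate number as a block, Mrpl20 at 0.29 (adjusted p = 0.014) and Mrps2 at 0.27 (adjusted p = 0.0101) did not pass either, and Mrpl52 had an adjusted p of 0.027. With the adipocyte markers as a covariate Mrps28 (-0.39, adjusted p = 0.011), Mrpl37 (-0.32, adjusted p = 0.018), Mrps14 (-0.28, adjusted p = 0.028), Mrpl30 (-0.32, adjusted p = 0.028), Mrpl40 (0.25, adjusted p = 0.029) and Mrps18c (0.31, adjusted p = 0.016) were lost. Mrpl40 and Mrps18c were also lost with DESeq2, RLE factors or the block, and Mrpl17 with RLE factors or the block. Mrpl30 was lost with limma-voom, upper-quartile factors or a mean count of at least 50, Mrpl2 with upper-quartile factors, and Mrps18c with limma-voom.

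Mammals carry 3 genes for the bacterial S18 protein, and their products occupy different places, Mrps18b and Mrps18c in the small subunit and Mrps18a in the large subunit. Mrps18a (Entrez Gene 68565, chromosome 17 from 46111004 to 46128908) had 47.1, 43.5, 46.5 and 40.8 CPM in the control and 39.2, 37.6, 37.4 and 38.1 CPM in the knockout libraries (log2 fold change -0.22, SE 0.065, adjusted p = 0.013). Mrps18c (Entrez Gene 68735, chromosome 5 from 100798759 to 100804467) had 22.4, 24.3, 24.3 and 22.999 CPM in the control and 28.9, 25.6, 29.2 and 31.1 CPM in the knockout libraries (log2 fold change 0.29, SE 0.076, adjusted p = 0.0080). The libraries of the groups did not overlap for either gene, and Mrps18a, which did not pass, was negative with TMM and positive at 0.45 under library totals alone. Mrps18c shares 18.5% of its exon bases with a transcript on the same strand, and its call was lost without 7 of the 8 libraries, as given above.

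The ratio of 2 genes within a library does not depend on the scaling. The log2 count ratio of Mrps18b to Mrps18a was -0.91, -0.79, -0.90 and -1.02 in the controls and -0.092, -0.081, 0.013 and -0.14 in the knockouts. It was higher in the knockouts by 0.83 (means -0.90 ± 0.091 and -0.074 ± 0.062, SD, n = 4 each). The two-sided p of the exact permutation test was 0.0286, or 0.0429 after adjustment over 3 ratios, where 0.0286 is the smallest p that 4 against 4 can give. As CPM, Mrps18b was wholly higher and Mrps18a wholly lower in the knockouts. This ratio therefore had to separate, and its p adds no support. The ratio of Mrps18c to Mrps18a was higher by 0.51, from -0.92 ± 0.11 to -0.41 ± 0.11 (exact permutation p = 0.0286, adjusted 0.0429), without overlap. Mrps18c was likewise wholly higher as CPM, so this p adds no support either. The ratio of Mrps18b to Mrps18c was 0.016 ± 0.15 and 0.34 ± 0.13 with overlapping groups (exact permutation p = 0.0571, adjusted 0.0571). Across the full range of the family, Mrpl24 over Mrpl42 went from -2.88 ± 0.042 to -0.98 ± 0.018, a pair picked for its difference and therefore given without a test.

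**Figure D4:**
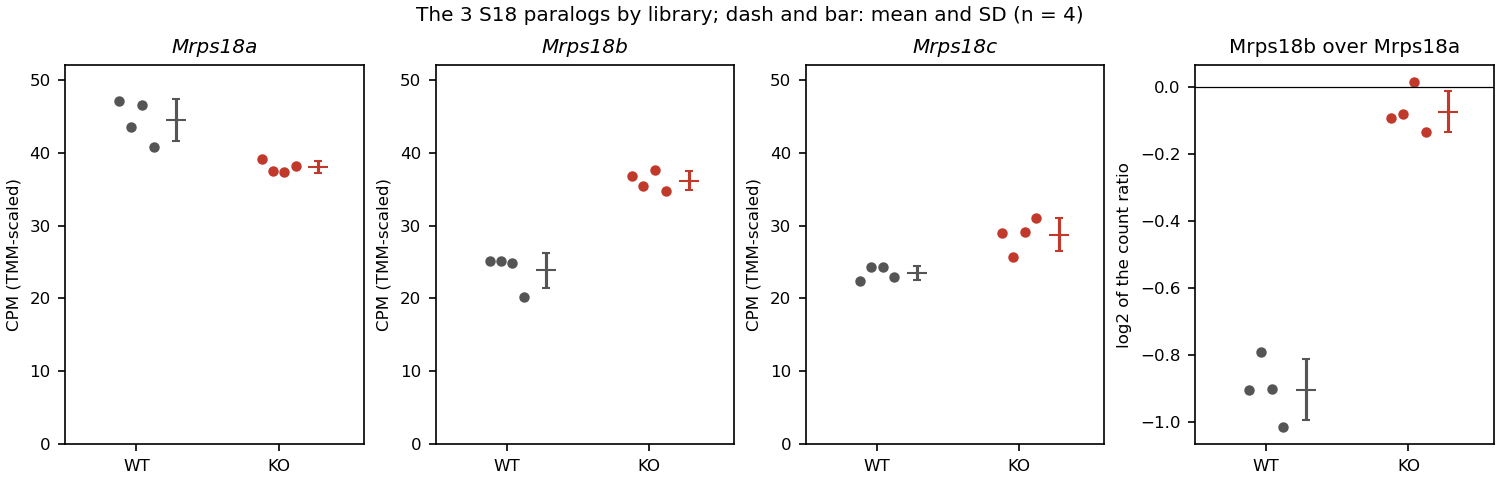
TMM-scaled CPM of the 3 S18 genes and the log2 ratio of Mrps18b to Mrps18a counts, with 1 point per library for the control (WT) and knockout (KO) mice and a dash and bar for the mean and SD. The ratio lies between -1.02 and -0.79 in WT and between -0.14 and 0.013 in KO, and it does not depend on library scaling, while the lower CPM of Mrps18a in KO turns to a positive difference under library totals alone.

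Genes for single functional centres were also read one by one. Mrps12 (Entrez Gene 24030, chromosome 7 from 28739641 to 28741781), the protein of the decoding centre, had 29.8, 27.6, 30.2 and 25.3 CPM in the control and 24.9, 19.5, 23.4 and 24.8 CPM in the knockout libraries (log2 fold change -0.29, SE 0.096, adjusted p = 0.026). The groups did not overlap but the gene did not pass. Mrpl45 (Entrez Gene 67036, chromosome 11 from 97315716 to 97329920), which holds the ribosome at the inner membrane by its exit site, had 60.8, 57.5, 63.6 and 50.03 CPM in the control and 45.5, 44.2, 43.5 and 44.5 CPM in the knockout libraries. It fell by 0.38 on the log2 scale (SE 0.079, adjusted p = 0.0020), every knockout lying below every control, and was at 0.29 under library totals alone.

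The stalk that recruits translation factors is built from Mrpl10, Mrpl11 and Mrpl12. Mrpl12 (Entrez Gene 56282, chromosome 11 from 120484669 to 120488754) had 105.4, 101.0, 90.5 and 88.9 CPM in the control and 87.2, 77.7, 71.2 and 75.6 CPM in the knockout libraries, a log2 fold change of -0.31 (SE 0.085, adjusted p = 0.011). Mrpl11 (Entrez Gene 66419, chromosome 19 from 4962306 to 4966995) had 37.9, 35.4, 36.7 and 33.5 CPM against 34.5, 30.2, 32.8 and 33.7 CPM, a log2 fold change of -0.13 (SE 0.069, adjusted p = 0.14). Mrpl10 (Entrez Gene 107732, chromosome 11 from 97041586 to 97049213) had 40.8, 37.3, 39.9 and 34.1 CPM against 46.8, 37.9, 41.0 and 42.2 CPM, a log2 fold change of 0.14 (SE 0.084, adjusted p = 0.17). None of the 3 stalk genes passed, and the groups overlapped for Mrpl10 and Mrpl11. The peptidyl-tRNA hydrolase of the large subunit, Mrpl58, stands in the table under its older symbol Ict1 and is counted with the subunits of other names below.

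Levels between genes were compared per kilobase of exon. Mrpl42 had the highest level in both groups, 286.7 CPM per kilobase in the control and 138 in the knockout libraries, and Mrps25 the lowest, 4.40 and 2.83. The median over the 77 genes was 29.7 and 29.4 CPM per kilobase, and the order of the genes was largely kept (Pearson's r of log2 levels 0.94 across the 77 genes, which share their libraries and are not independent). The SD of the log2 level across the 77 genes was 1.10 to 1.11 in the control libraries and 1.02 to 1.07 in the knockout libraries. Genes with higher control levels had lower log2 fold changes on average (r = -0.33 across the 77 genes), where the control level enters both measures. Lower genes had a median control level of 43.1 CPM per kilobase, higher genes of 21.2 and genes that did not pass of 28.9. Among the 77 genes exon width had little relation to the log2 fold change (r = 0.034). Median widths were 1043 bases in the lower, 1055 in the higher and 1067 in the other genes. All genes had a wider median, 2929.5 bases, against 1055 for the members. At widths of 407 to 938 bases, 18.8% of all genes were lower and 30.3% higher. The median log2 fold change there was 0.18 for all genes and -0.16 for members. It was 0.16 and -0.051 at 949 to 1424 bases, and 0.063 and -0.13 at 1434 to 6712 bases. In each range of widths the members' median lay below that of all genes.

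**Figure D5:**
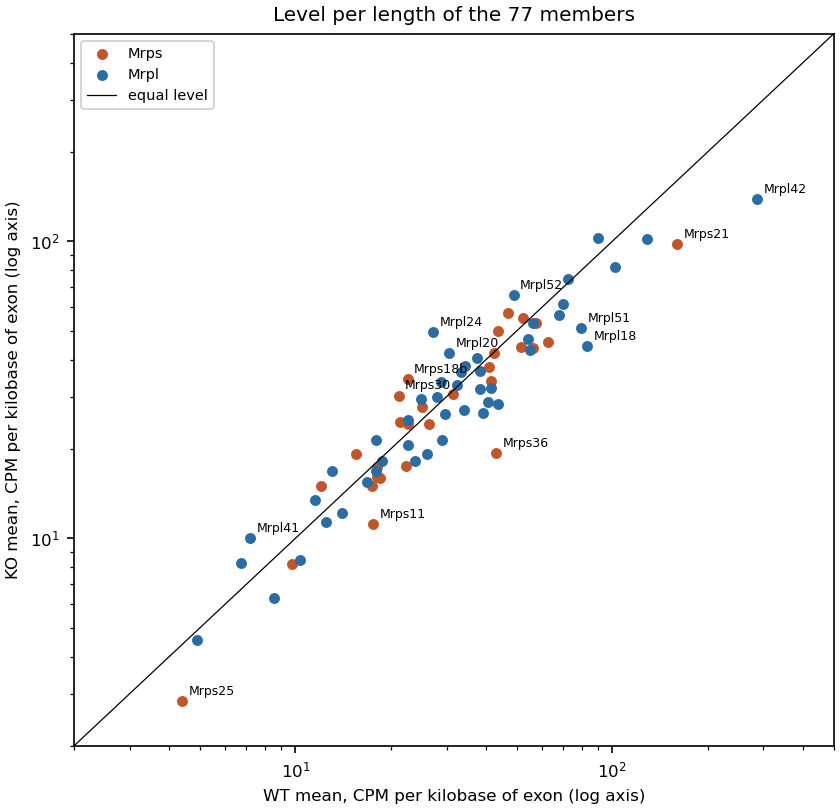
Mean level of each of the 77 genes in the control (WT, horizontal) against the knockout (KO, vertical) libraries, in TMM-scaled CPM per kilobase of exon on log axes, with the line of equal level. The points follow the line (r = 0.94), and the genes farthest below it, Mrps36, Mrpl42 and Mrpl18, and above it, Mrpl24 and Mrps18b, are those at the ends of the range of fold change.

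Overlapping genes can share reads. The spans of 9 of the 77 genes overlap another gene of the table, and 16 of the 77 share over 10% of their exon bases with another gene in the GENCODE annotation. The exons of that annotation can differ in width from those used for the deposited counts, so these shares are approximate for the counts. Mrps25, the lowest in level, overlaps Nr2c2 on the opposite strand with 58.2% of its exon bases, and Nr2c2 had a log2 fold change of -0.48 (adjusted p = 0.022) beside -0.64 for Mrps25. Mrpl48 shares 8.58% of its exon bases with Rab6a, and both were at -0.37. The values of genes that share exon bases are uncertain to the extent that reads were split between the partners. The span of Mrps23 overlaps that of Cuedc1 on the same strand, but it shares 0% of its 1427 exon bases in the GENCODE annotation. The deposited exon width of Mrps23 is 1642 bases. Cuedc1 was at -1.59, while Mrps23 was at 0.20 and did not pass.

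Beyond the Mrps and Mrpl names, other parts of the machinery were listed by function, and the counts below read against the same 21.1% lower and 23.6% higher of all genes. Under library totals alone they read against 873 lower and 8498 higher of all 14012 genes. Of 6 subunits with other names, Ptcd3, a small-subunit protein with pentatricopeptide repeats, was lower (71.8 ± 2.92 to 57.5 ± 4.39 CPM, log2 fold change -0.32, adjusted p = 0.0032), a call lost without control replicate 2 (adjusted p = 0.011). Chchd1 (-0.26, adjusted p = 0.044), Dap3 (-0.17, adjusted p = 0.088), Aurkaip1, Gadd45gip1 and Ict1 did not pass. With library totals alone all 6 were higher.

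Of 26 factors that modify the mitochondrial rRNAs or assemble the subunits, 3 were lower and 4 higher, with a median log2 fold change of -0.045. Gtpbp6, a GTPase of late large-subunit assembly and ribosome recycling, had 3.96, 4.32, 4.58 and 4.73 CPM in the control and 8.46, 10.1, 8.75 and 7.83 CPM in the knockout libraries (log2 fold change 0.99, SE 0.12, adjusted p = 6.79e-05). Mettl15, a methyltransferase of the small-subunit rRNA, went from 4.48 ± 0.56 to 8.63 ± 1.22 CPM (0.95, adjusted p = 2.99e-04), and Mrm2, a methyltransferase of the large-subunit rRNA, from 8.26 ± 1.13 to 4.70 ± 0.69 CPM (-0.81, adjusted p = 9.55e-04). The groups did not overlap for any of these 3 genes. The remaining calls, named after their values were seen, were Mterf3 (0.54), Dhx30 (0.34), Rbfa (-0.48) and Nsun4 (-0.38). The count of lower genes was 5 without control replicate 4 and 8 with DESeq2, and Dhx30 and Nsun4 were lost without WT2, WT3 or KO1, Dhx30 also without KO4 (adjusted p at most 0.013).

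Of 15 factors of translation and of insertion into the membrane, 6 were lower and 0 higher, with a median log2 fold change of -0.29, and 11 (73.3%, against 63.6% of all genes) had an unadjusted p under 0.05, of which Tsfm alone had a positive value (0.25, adjusted p = 0.064). DESeq2 called 0 higher as well, whereas library totals alone gave 1 lower and 8 higher. Taco1, the translational activator of the mitochondrial COX1 mRNA, had 68.5, 66.8, 67.8 and 45.7 CPM in the control and 28.5, 28.03, 29.02 and 24.1 CPM in the knockout libraries (log2 fold change -1.18, SE 0.13, adjusted p = 3.37e-05). Gfm2, the elongation factor G homologue of ribosome recycling, went from 111.8 ± 7.36 to 65.7 ± 4.55 CPM (-0.77, adjusted p = 1.65e-05) and Gfm1, the one of elongation, from 141.4 ± 6.37 to 97.1 ± 10.05 CPM (-0.54, adjusted p = 3.19e-04). The groups of all 3 were apart. The others that passed, named after their values were seen, were Tufm (-0.53), the elongation factor that brings tRNA, the release factor Mtrf1l (-0.55) and Guf1 (-0.41). Mtrf1l was lost without WT1, WT2, WT3, WT4 or KO4 (adjusted p at most 0.024), and Guf1 without these or KO3 (at most 0.021).

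The mRNAs that the mitochondrial ribosome translates were far lower. Of 11 mRNAs of the mitochondrial genome in the table, 10 were lower and 0 higher, with a median log2 fold change of -1.72. All 11 values were negative with an unadjusted p under 0.05, and DESeq2 and library totals alone called 0 higher as well. ND1 was at 15420 ± 939 and 3937 CPM (log2 fold change -1.97) and ND2 at 12294 ± 360 and 2968 CPM (-2.05), both subunits of complex I, as was ND4 at 8217 ± 100.4 and 2615 CPM (-1.65). Of the 11, ATP6, COX2, COX3 and ND3 had mean levels of only 0.66 to 8.24 CPM in the control, beside 3808 to 34755 CPM for the other 7, and these 4 made up at most 0.025% of the counts of the 11 in any library. Counts of the 77 ribosomal protein genes amounted to 2.78% to 3.11% of the counts of these mRNAs in the control libraries and to 8.29% to 10.2% in the knockout libraries, without overlap, a ratio within each library that no scaling touches. The summed CPM of these mRNAs was 103150 to 106840 in the control and 26433 to 35252 in the knockout libraries, whereas that of the 77 genes overlapped. This ratio therefore had to separate and says nothing more about the 77 genes.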

How the data were processed

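PolyA RNA of quadriceps femoris from 4 control and 4 knockout mice was sequenced as directional libraries, 1 per mouse. For the deposited counts, reads were demultiplexed with bcl2fastq 2.20.0.422, trimmed with cutadapt, mapped to GRCm38 with STAR 2.5.4b and counted over exons with Rsubread. Read pairs that were duplicate, chimeric, multimapping or under a mapping quality of 10 had been left out by the authors, and the deposited table keeps genes with at least 50 reads. Genes of the table held at least 51 counts in all. The annotation release and the use of strand in counting are not given in the sources used here. The table also holds FPKM values and the authors' DESeq2 1.32.0 comparison (fold changes and p-values), neither of which was used. Deposited exon widths gave levels per kilobase.

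All 14012 genes were tested with edgeR 4.0.16 in R 4.3.3 (quasi-likelihood test, TMM factors, group as the only term, Benjamini-Hochberg adjustment, adjusted p under 0.01). Log2 CPM took a prior count of 2. Standard errors are the fold change over the root of the F statistic. Single ratios were compared over the 70 assignments of 4 against 4. Replicate libraries differed by more than counting allows (chi-square over its degrees of freedom, 18.1 to 43.6), so none was taken as a copy. On simulated counts of 13990 genes with 200 changed, edgeR recovered 100% of genes changed by 2 and 92% of those changed by 1 on the log2 scale, with 5 unchanged genes called, and DESeq2 1.42.0 recovered 100% and 95%, with 20 called. The changed genes were well counted, and as many went up as down. No shift in composition like that between the groups here was built in, so the simulation cannot bear on the choice of scaling. Alternatives were other factors, filters, DESeq2, limma-voom (limma 3.58.1), a threshold of 0.05, a replicate block, a trend on exon width, an adipocyte covariate, other prior counts and each library left out.

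The genes named are the 6 lowest and 6 highest log2 fold changes among members that passed, members with a role of their own, every other member that passed, and the 3 smallest p in each related list. Members and lists were chosen with earlier results of these data known. Proteins of the members were not analysed here, and neither were listed symbols that the table does not hold.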

Additional observations from a re-analysis of the deposited data

Results flagged for a closer look

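Of 54 groups of 4 libraries tested for a single library far from the others, 6 held one, where chance gives about 1 in 20 such groups. Mrps30 had 31.8 CPM in control replicate 2, below 34.2 to 34.3 CPM in the other controls. Mrps18b had 20.2 CPM in control replicate 4, below 24.9 to 25.1 CPM, and Mrpl24 had 23.2 CPM in the same library, below 26.6 to 26.98 CPM. The subunits of other names had a mean log2 CPM of 5.37 in control replicate 4, below 5.57 to 5.598. Mrpl52 had 26.4 CPM in knockout replicate 2, below 27.45 to 27.52 CPM in the other knockouts. The share of raw counts of the 77 genes was 0.332% in knockout replicate 3, below 0.360% to 0.363%. Control replicate 4 was the low library in 3 of the 6, and without it the higher calls of Mrps18b and Mrpl24 stayed past the threshold.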

How the results depend on the processing

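The scaling mattered most. With RLE or upper-quartile factors the members that were lower or higher numbered 25 and 8 or 19 and 15. Of all genes 3213 and 3005 or 2831 and 3526 were called. With library totals alone, which leave out the correction for composition, the members numbered 2 and 64 (Mrps 1 and 24, Mrpl 1 and 40), beside 873 and 8498 of all genes. Medians were then 0.56 for all 77 genes, 0.56 for Mrps and 0.55 for Mrpl. Differences in mean log2 CPM were 0.55 for Mrps and 0.56 for Mrpl. Groups did not overlap in 1 and 66 members, a count not made for all genes. With these totals the subunits of other names numbered 0 lower and 6 higher, the assembly factors 0 and 21 and the translation factors 1 and 8, while 10 mRNAs of the mitochondrial genome stayed lower. Relative to the median of all genes the members' median was -0.31 to -0.14 over all 20 alternatives, and a change of scaling alone leaves it nearly fixed. Log2 fold changes that turned positive under library totals alone, with a call in one or both fits, were, among the genes called lower, Mrps11 0.013, Mrpl51 0.027, Mrps25 0.033, Mrpl34 0.054, Mrpl16 0.11, Mrpl28 0.17, Mrps28 0.22, Mrpl1 0.23, Mrpl36 0.23, Mrpl50 0.24, Mrpl45 0.29, Mrpl48 0.30, Mrps15 0.30, Mrpl37 0.31, Mrps14 0.33, Mrpl30 0.34 and Mrpl2 0.40. Among the members that did not pass they were Mrpl55 0.35, Mrpl12 0.36, Mrpl35 0.38, Mrps12 0.38, Mrpl4 0.41, Mrps33 0.43, Mrps18a 0.45, Mrps6 0.45, Mrps27 0.46, Mrpl13 0.46, Mrpl49 0.46, Mrpl14 0.48, Mrpl3 0.49, Mrps31 0.51, Mrpl22 0.53, Mrpl11 0.54, Mrpl15 0.56, Mrps5 0.56, Mrps24 0.56, Mrpl19 0.56, Mrps7 0.56, Mrpl47 0.58, Mrpl54 0.59, Mrpl9 0.61, Mrps22 0.62, Mrpl46 0.62, Mrps26 0.64 and Mrps16 0.65. Among the related genes they were Dap3 0.50, Ptcd3 0.35, Chchd1 0.41, Mtg1 0.62, Noa1 0.38, Eral1 0.42, Mterf4 0.66, Nsun4 0.28, Rbfa 0.19, Malsu1 0.41, Fastkd2 0.35, Rpusd4 0.50, Trub2 0.63, Wbscr16 0.55, Mtif2 0.46, Tufm 0.14, Gfm1 0.13, Mrrf 0.52, Mtrf1 0.35, Mtrf1l 0.13, Guf1 0.26, Mtfmt 0.51, Rmnd1 0.38 and Oxa1l 0.45. No other alternative turned the sign of a gene that passed in either fit.

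With the trend on exon width taken out the medians were -0.23 for all 77 genes, -0.20 for Mrps and -0.25 for Mrpl, lower subunits of other names numbered 2 and lower assembly factors 6. With this and the replicate number as a block the medians were -0.23, -0.20 and -0.24. Higher members then numbered 6 (Mrps 2, Mrpl 4), beside 3266 of all genes, lower subunits of other names 2 and lower assembly factors 5. Lower assembly factors numbered 6 with RLE factors, 8 with DESeq2, 8 at an adjusted p under 0.05 and 1 with the adipocyte covariate. At an adjusted p under 0.05 higher Mrps genes numbered 7, lower subunits of other names 2 and lower translation factors 10. The cause of these differences was not tested. DESeq2 called 26 members lower and 9 higher and kept 30 of the 32, limma-voom called 20 and 10, and 28 and 16 passed at 0.05. Of all genes these settings called 3480 and 3251, 2915 and 3159, and 3848 and 4436. A stricter filter on counts and other prior counts moved no summary of the members beyond 1.5 times or 1 SD between libraries, pooled over both groups. Without Mrps18a, Mrps30 and Mrps36 in the means, the knockout minus control difference of Mrps minus Mrpl was 0.014 in place of -0.0059, a move larger than the SD of the knockout libraries (0.011) and smaller than that of the controls (0.026).

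Leaving out 1 library in turn, lower members numbered 17 to 26 and higher members 8 to 10, beside 2600 to 2937 and 2596 to 3005 of all genes. Members wholly below the controls numbered 24 to 38, which was not counted over all genes. Lower subunits of other names numbered 0 to 1, lower assembly factors 2 to 5 and lower translation factors 4 to 7. The difference of Mrps minus Mrpl was -0.017 to 0.0020. The replicate numbers give no stated pairing. Same-numbered control and knockout libraries correlated in their deviations at 0.12, 0.003, 0.42 and 0.14, and differently numbered ones at -0.29 to 0.11. Replicates 1, 3 and 4 thus stood above every differently numbered pair and replicate 2 did not, so not every library went with its own number. Whether the numbers mark a pairing was not tested. With the replicate number as a block 22 members were lower and 8 higher, with 29 of the 32 genes shared, beside 2908 lower and 3215 higher of all genes. At this depth every member had at least 130 counts per library. How much counting and how much the spread between mice set the precision of each member was not worked out.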
